A study of Mus musculus with 3 samples.

Results

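The genes described here are Lgals3, Spp1, Lpl, Mmp12, Ch25h, Lilrb4a, Lilr4b, Il1rn, Plaur and Gpnmb, 10 of the 27998 genes of the deposited matrix, found by their symbols. They were proposed as genes of a rare microglial state from values of these same libraries, so their levels are given as a description and no test is made on them. The cells are YFP (+) cells sorted from the lumbar spinal cord of young adult C57BL/6 mice heterozygous for Cx3cr1-creER-yfp, in which the Cx3cr1 locus drives the YFP in microglia and in other cells that use this gene. The 3 groups were sequenced as 1 library each. They were naive animals, and animals 24 h or 48 h after sciatic nerve transection, with the cords of 3 animals pooled per group. All 3 groups carried the same allele. The libraries are told apart only by a barcode suffix of 1, 2 or 3, and which suffix belongs to which group is not stated in the labels or the methods. The libraries are therefore called 1, 2 and 3 with the time point left unknown, and no test between libraries or time points is possible.

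Microglia that meet myelin debris, dying neurons or amyloid can leave their homeostatic program and take up a set of phagocytic and lipid-handling genes. Lgals3 encodes galectin-3, a lectin that binds galactosides on damaged membranes and on glycoproteins. Spp1 encodes osteopontin, a secreted phosphoprotein that binds integrins and CD44. Lpl encodes lipoprotein lipase, which releases fatty acids from triglyceride-rich lipoproteins. Mmp12 encodes macrophage metalloelastase, Plaur the receptor for urokinase, Il1rn the secreted antagonist of the interleukin 1 receptor and Gpnmb a transmembrane glycoprotein of phagocytic macrophages. Ch25h adds a hydroxyl group to cholesterol and so makes an oxysterol. Lilrb4a and Lilr4b are neighbouring immunoglobulin-like receptors of myeloid cells.

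In the GENCODE M21 annotation of GRCm38, all 10 genes are protein-coding and were found by symbol, 8 of them with the same identifier as in the matrix. Lilr4b (chr10:51480632-51486703) and Lilrb4a (chr10:51490956-51496611) lie on the plus strand with 4252 bases between them. Their longest coding transcripts were identical at 96.6% of 1379 aligned bases, with a longest identical run of 241 bases. A read inside such a run cannot be given to one of them, so their counts are uncertain. Lgals3 lies at chr14:47367751-47386160, Spp1 at chr5:104435118-104441050, Lpl at chr8:68880491-68907448, Mmp12 at chr9:7344381-7369499 and Plaur at chr7:24462484-24475968, all on the plus strand.

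Promoters are shown because several of these genes were found together in the same cells. The RefSeq promoter table (GRCm38.p6) held 12 promoters of 8 of the genes, and Lpl and Lilrb4a had none. The 250 bases before each start were searched on both strands for TGANTCA (the site of AP-1 factors), for GAGGAA (a core of PU.1 sites) and for CACGTG (an E-box). TGANTCA was found for Mmp12, Il1rn and Plaur, in 3 of the 12 promoters, against 6.75% of all 32851 promoters in the table. GAGGAA was found for Spp1, Mmp12 and Plaur, also in 3 of the 12 promoters, against 23.3% of all promoters, a similar share. CACGTG was found for none of the 8 genes, against 6.02%. A match is a description of the letters and not of binding. The windows of 4 genes with a match follow, 5′ to 3′ on the plus strand, with TGANTCA and GAGGAA matches in capitals.
Plaur, chr7:24462233-24462482: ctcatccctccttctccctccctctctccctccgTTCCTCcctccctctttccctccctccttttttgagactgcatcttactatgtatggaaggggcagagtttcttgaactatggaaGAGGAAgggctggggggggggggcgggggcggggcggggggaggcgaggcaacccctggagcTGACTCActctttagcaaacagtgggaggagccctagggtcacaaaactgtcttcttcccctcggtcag
Il1rn, chr2:24336610-24336859: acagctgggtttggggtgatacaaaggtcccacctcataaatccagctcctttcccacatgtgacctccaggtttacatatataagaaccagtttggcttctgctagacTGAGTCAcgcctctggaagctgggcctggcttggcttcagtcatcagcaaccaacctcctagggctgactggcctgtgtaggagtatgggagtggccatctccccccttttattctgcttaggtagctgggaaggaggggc
Mmp12, chr9:7347124-7347373: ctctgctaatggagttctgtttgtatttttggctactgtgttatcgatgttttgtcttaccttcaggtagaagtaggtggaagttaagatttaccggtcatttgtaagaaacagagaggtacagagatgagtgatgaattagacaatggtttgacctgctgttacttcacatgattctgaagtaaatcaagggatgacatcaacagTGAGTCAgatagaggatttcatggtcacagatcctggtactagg
Spp1, chr5:104434861-104435110: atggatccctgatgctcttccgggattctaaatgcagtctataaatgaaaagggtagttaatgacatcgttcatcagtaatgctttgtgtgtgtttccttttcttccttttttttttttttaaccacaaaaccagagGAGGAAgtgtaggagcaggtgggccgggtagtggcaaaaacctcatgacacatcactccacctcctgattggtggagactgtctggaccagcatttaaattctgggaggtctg
Counted from the start of transcription, TGANTCA began at position -69 in Plaur, -141 in Il1rn and -44 in Mmp12, and GAGGAA began at -113 in Spp1 and at -216 and -131 in Plaur. The window of Mmp12 belongs to the downstream of 2 starts listed for that gene, and the GAGGAA match of Mmp12 lay at -86 of the upstream start, whose window is not shown. Il1rn and Spp1 also had other listed starts, whose windows held no match. The windows of Lgals3, Ch25h, Lilr4b and Gpnmb held none of the 3 motifs.

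The 3 libraries held 609, 3591 and 3322 cells with a median of 2218, 5952 and 5742 UMIs (unique molecular identifiers, 1 per counted transcript). Library 1 was thus smaller and shallower than the others, and shares of cells are given as deposited and after each cell was thinned to 2000 UMIs, which left 408, 3569 and 3284 cells. All 12 microglia markers, among them P2ry12 and Tmem119, were found, and every one of the 7522 cells had at least 2 of them. The libraries shared 25 cell barcodes, and none of them belonged to a cell with 3 or more of the genes described here. No class of cells that should lack these genes could be formed from the markers, so the level of free RNA was not measured for them.

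Lpl was found in 18.9% of the 7522 cells, Plaur in 6.81%, Spp1 in 5.70%, Lgals3 in 4.64% and Lilrb4a in 2.01%. The remaining genes were found in under 1% of cells: Ch25h in 48, Il1rn in 41, Lilr4b in 22 and Mmp12 in 14 cells. Gpnmb had no UMI in any cell, which allows a share of up to 0.0399%. By share of cells, the word rare in their proposed name applies to the latter genes and not to Lpl. Cells with a gene were deeper than cells without it, with a median of 6713 against 5626 UMIs for Lgals3, 6792 against 5619 for Spp1 and 6559.5 against 5485.5 for Lpl.

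Spp1 and Lgals3 were found in a larger share of library 2 than of the other libraries. Spp1 was found in 9 cells of library 1 (1.48%, exact binomial interval 0.678 to 2.79), against 375 of library 2 (10.4%, 9.46 to 11.5) and 45 of library 3 (1.35%, 0.990 to 1.81). Lgals3 was found in 7 cells of library 1 (1.15%, 0.463 to 2.35), against 262 of library 2 (7.30%, 6.47 to 8.20) and 80 of library 3 (2.41%, 1.91 to 2.99). The intervals of libraries 1 and 3 overlapped for each. Lpl was found in 54 cells of library 1 (8.87%, 6.73 to 11.4), in 744 of library 2 (20.7%, 19.4 to 22.1) and for library 3 in 624 cells (18.8%, 17.5 to 20.2), so that libraries 2 and 3 overlapped. Plaur was found in 3.28%, 6.68% and 7.59% of cells of libraries 1, 2 and 3, again with overlap between the last pair. These intervals, like those that follow, hold the error of counting and leave out any difference among animals.

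After thinning, Lpl no longer differed beyond its intervals in any pair of libraries, with 7.84%, 6.81% and 7.40% of cells. The same held for Plaur, with 4.17%, 2.07% and 2.31%. Lgals3 and Spp1 kept intervals apart between libraries 2 and 3 only. Lgals3 was then found in 1.47% of cells of library 1 (0.542 to 3.17), 2.33% of library 2 (1.86 to 2.87) and 0.974% of library 3 (0.667 to 1.37). Spp1 was found in 1.23% (0.399 to 2.84), 2.94% (2.41 to 3.55) and 0.426% (0.233 to 0.714). For the smaller genes, thinning left at most 28 cells each in library 2. As deposited, Ch25h, Lilr4b and Il1rn were found in a larger share of library 2 than of library 3, with 38 against 8, 18 against 2 and 37 against 3 cells, and none of these differences stood apart after thinning. Thinning left 13 against 2, 8 against 1 and 8 against 2 cells, and with so few cells the intervals are wide. The part of depth, at medians of 5952 and 5742 UMIs in these libraries, was not tested.

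**Figure D1:**
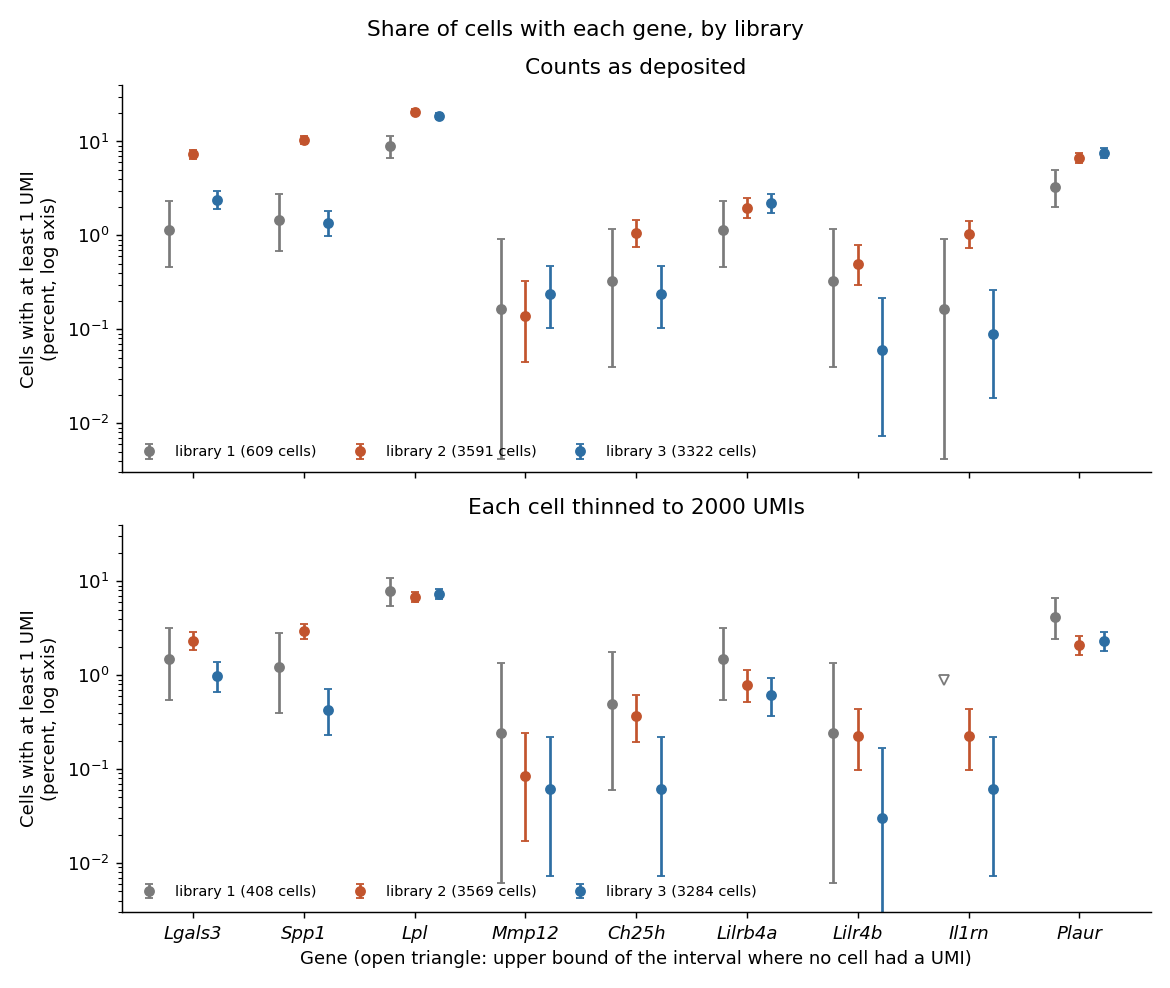
Percent of cells with at least 1 UMI of each gene (log axis) in libraries 1, 2 and 3, with exact 95% binomial intervals, for the counts as deposited (top) and after thinning each cell to 2000 UMIs (bottom). After thinning, Lgals3 and Spp1 still stood apart between libraries 2 and 3 (2.33% against 0.974% and 2.94% against 0.426%), while the 3 libraries overlapped for Lpl and Plaur.

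Summed levels gave another order of the libraries than the shares of cells did. Levels are in CPM, the UMIs of the gene scaled to the total UMIs of the library, with exact Poisson intervals. Spp1 was at 25.3 CPM (17.5 to 35.4) in library 1, at 24.7 CPM (22.7 to 26.8) in library 2 and at 3.14 CPM (2.40 to 4.02) in library 3, so libraries 1 and 2 could not be told apart although their shares of cells differed. In library 1 a single cell held 19 of the 34 Spp1 UMIs. Lgals3 was at 11.2 CPM (6.25 to 18.4) in library 1, at 15.3 CPM (13.8 to 16.9) in library 2 and at 5.21 CPM (4.25 to 6.32) in library 3. Lpl was at 72.2 CPM (58.6 to 88.1) in library 1, at 39.5 CPM (37.0 to 42.1) in library 2 and at 44.1 CPM (41.2 to 47.1) in library 3. Ch25h was at 11.2 CPM in library 1, where 2 cells held all 15 UMIs, at 2.45 in library 2 and at 0.556 in library 3. Its intervals in libraries 2 and 3 were apart (1.86 to 3.16 against 0.278 to 0.996). So were those of Lilr4b, at 0.996 CPM (0.638 to 1.48) against 0.101 (0.0123 to 0.365). Il1rn was at 2.07 CPM (1.54 to 2.74) against 0.152 (0.0313 to 0.443) in the same libraries.

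Against all genes, the libraries differed as follows, with a pseudocount of 1 CPM. Among genes of at least 50 CPM in either library, 8.11% were past 2-fold between libraries 2 and 1, 8.49% between 3 and 1 and 3.72% between 3 and 2. Lpl was the only one of the 10 genes in the first 2 of these comparisons and was past 2-fold in neither, and none of the 10 entered the last. Among genes of at least 10 CPM, 10.3% were past 2-fold between libraries 2 and 1, 10.1% between 3 and 1 and 4.46% between 3 and 2. Ch25h was past 2-fold lower in library 2 than in library 1 (log2 ratio -1.82), 1 of 5 of the genes that entered. Spp1 and Ch25h were lower in library 3 than in library 1 (-2.67 and -2.97), 2 of 5. Spp1 and Lgals3 were lower in library 3 than in library 2 (-2.63 and -1.39), 2 of 4. Each gene past 2-fold here reached 10 CPM only in the library where it was higher, so its ratio could only go that way. In library 1 the level of Ch25h rested on 2 cells, and a single cell held 19 of the 34 UMIs of Spp1. The genes were chosen with these libraries in view, so their counts are not read against the share of all genes.

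Most cells with a gene held 1 UMI of it, beside a small number of cells with many. Of the 349 cells with Lgals3, 319 held 1 UMI, 24 held 2 to 4, 4 held 5 to 9 and 2 held 10 or more, and these 2 cells gave 17.3% of all Lgals3 UMIs. Of the 429 cells with Spp1, 388 held 1 UMI and 7 held 10 or more, and those 7 cells gave 32.6% of its UMIs. The highest values in a cell were 60 for Lgals3 and 111 for Spp1, both in library 2. For Lpl the UMIs were spread more evenly. Of its 1422 cells, 1171 held 1 UMI, 218 held 2 to 4, 25 held 5 to 9 and 8 held 10 or more, and the last gave 5.67% of the UMIs. Mmp12 had no cell with 10 or more UMIs, but 18 of its 30 UMIs lay in 2 cells of 9 UMIs each, 1 in library 2 and 1 in library 3. A single cell of library 2 gave 12 of the 54 UMIs of Il1rn. Of the 512 cells with Plaur, 457 held 1 UMI, 52 held 2 to 4 and 3 held 5 or more.

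**Figure D2:**
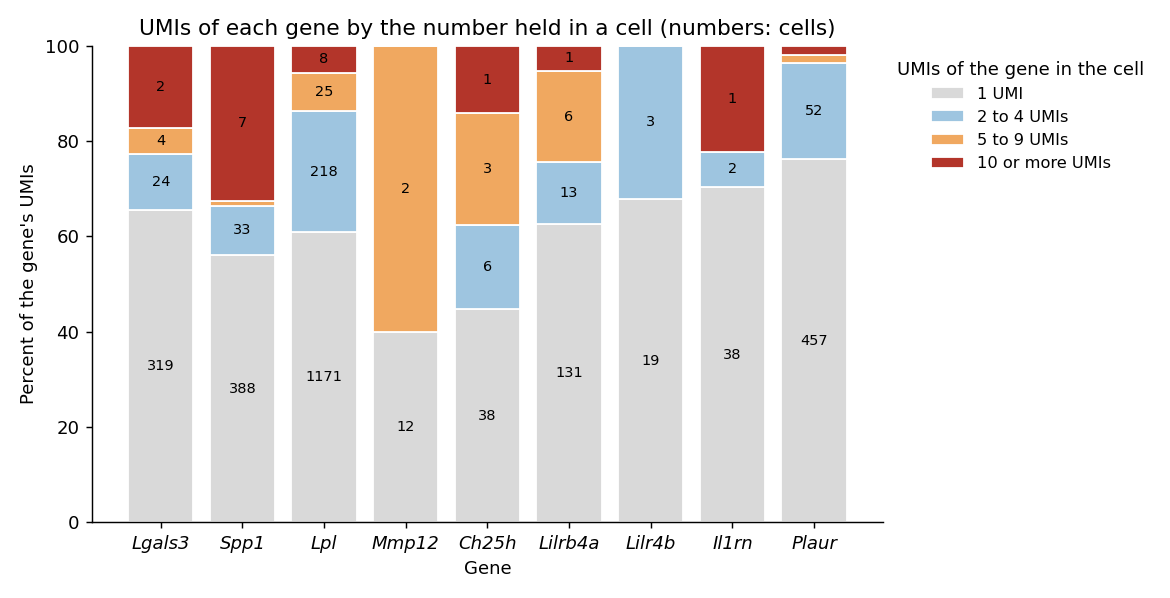
Percent of the UMIs of each gene (bars) found in cells with 1, 2 to 4, 5 to 9 or 10 or more UMIs of that gene, over all 7522 cells, with the number of cells written in the larger segments. Cells with 10 or more UMIs gave 32.6% of the UMIs of Spp1 (7 cells) and 5.67% of those of Lpl (8 cells).

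A total of 20 cells held 10 or more UMIs of the genes summed, a threshold set after the values were seen. They were 4 of the 609 cells of library 1 (0.657%, exact interval 0.179 to 1.67), 10 of the 3591 of library 2 (0.278%, 0.134 to 0.512) and 6 of the 3322 of library 3 (0.181%, 0.0663 to 0.393), so that the intervals of the 3 libraries overlapped. These 20 cells held 672 UMIs, 16.4% of all UMIs of the genes, and 41.9% of those in library 1. Near the threshold, 5 cells had a sum of 9 and 3 a sum of 8, against 1 cell each at 10, 11, 12 and 13. Their depth ran from 2294 to 14649 UMIs and their mitochondrial share from 0.174 to 2.87%. Each had 7 to 12 of the 12 microglia genes.

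Lpl was the leading gene in 9 of these cells, Spp1 in 6, Lgals3 in 3 and Ch25h in 2. In the cells led by Spp1, Spp1 ran from 10 to 111 UMIs and Lgals3 from 0 to 3, and 4 of the 6 had no Lpl UMI. In the cells led by Lgals3, Lgals3 was at 7, 24 and 60 UMIs and Spp1 at 1, 0 and 0, while Lpl was found in each. No cell held 5 or more UMIs of both Lgals3 and Spp1, with 6 cells at that level for Lgals3 and 8 for Spp1. Lgals3 and Lpl were both at 5 or more in 5 cells, and Spp1 and Lpl in 3. With so few cells at that level among 7522, a count of 0 for Lgals3 with Spp1 cannot show whether the genes exclude each other. A minimum on the sum also admits cells high in 1 gene alone. Over all cells, Lgals3 and Spp1 were found together in more cells than expected (53 against 33.6). The leading gene differed among the 20 cells, and no more is read from it.

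Single cells show the range. A cell of library 2 with 14649 UMIs in total held 8 of the genes, with 24 UMIs of Lgals3, 15 of Lpl, 12 of Il1rn, 11 of Lilrb4a, 11 of Plaur, 9 of Mmp12, 3 of Lilr4b and 1 of Ch25h, and no Spp1. Mmp12, Il1rn and Plaur had their highest value in any cell there. Mmp12 reached the same value in a cell of library 3, which held 13 UMIs of Lpl, 7 of Lilrb4a and 6 of Lgals3 beside it. The cell with 111 UMIs of Spp1 held 1 UMI each of Lgals3 and Lilrb4a and none of the other genes. A cell of library 1 with 4331 UMIs held 14 of Lpl, 9 of Ch25h, 7 of Spp1 and 3 of Lgals3 beside 338 UMIs of Apoe, an apolipoprotein of lipid-handling microglia. Over the 20 cells Apoe ran from 1 to 338 UMIs with a median of 7.

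**Figure D3:**
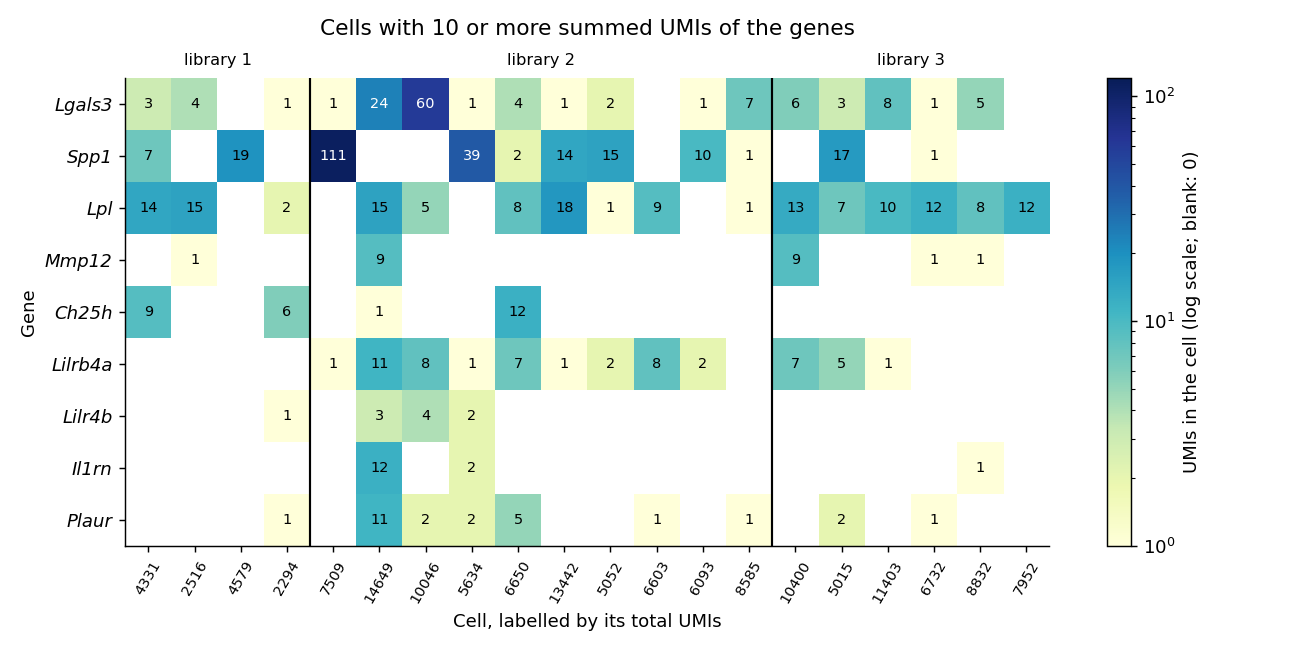
UMIs of 9 genes (rows; Gpnmb had none) in each of the 20 cells with 10 or more summed UMIs (columns, labelled by the cell's total UMIs), by library, with colour on a log scale and blank for 0. Spp1 was highest, at 111 UMIs, in a cell with 1 UMI of Lgals3, and Lgals3, at 60, in a cell without Spp1.

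Without these 20 cells the differences between libraries 2 and 3 were still present. Spp1 was then at 6.02 CPM (2.60 to 11.9) in library 1, 16.8 CPM (15.2 to 18.5) in library 2 and 2.23 CPM (1.62 to 2.996) in library 3. For Spp1, library 1 thus lay below library 2, which was not so with all cells. Lgals3 was at 5.27 CPM (2.12 to 10.8), 11.1 (9.83 to 12.5) and 4.06 (3.22 to 5.05). Ch25h had no UMI left in library 1, which allows up to 3 counts. Lpl remained highest in library 1, at 49.6 CPM (38.4 to 63.2), against 37.3 (34.9 to 39.8) and 41.1 (38.3 to 44.0) in libraries 2 and 3, with overlap between libraries 1 and 2 and between 1 and 3. Plaur was at 18.1 CPM (11.6 to 26.9), 10.9 (9.63 to 12.3) and 14.6 (12.9 to 16.3).

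Co-expression was counted as cells with both genes. The number expected is the one given by the shares of both genes within each library and each depth decile, since deeper cells show more genes. The 9 genes with a UMI make 36 pairs, and all were found in at least 1 cell. The observed number was above the expected one for 35 pairs and below it for Spp1 with Lilr4b (2 cells against 2.11). For 15 pairs the Poisson interval of the ratio lay above 1, and for none below 1. Of the 14 pairs with at least 5 cells expected, 7 had such an interval. A cell with several genes counts in several pairs, so the pairs are not independent of each other. Pairs of other genes were not counted, and how many of them exceed their expectation is unknown. These counts of pairs are therefore not read as particular to the set, which was chosen with these libraries in view. Depth still varied within a decile, and its part was not tested.

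Lgals3 and Lilrb4a were found together in 31 cells against 8.05 expected, a ratio of 3.85 (2.62 to 5.46), and above expectation in each library, with 1, 20 and 10 cells. Lilrb4a was found in 8.88% of cells with Lgals3 (6.12 to 12.4) and in 1.67% of cells without it (1.39 to 1.997). Lgals3 and Spp1 were found together in 53 cells against 33.6, a ratio of 1.58 (1.18 to 2.06). For Lgals3 and Lpl the numbers were 102 against 83.0 (1.23, 1.001 to 1.49), and for Spp1 and Lpl 112 against 102 (1.097, 0.903 to 1.32). The interval of Spp1 with Lpl thus included 1, and that of Lgals3 with Lilrb4a lay furthest above it among these. Lpl and Plaur were found together in 148 cells against 116 (1.27, 1.07 to 1.49), and Lpl and Lilrb4a in 53 against 34.0 (1.56, 1.17 to 2.04). Ch25h and Plaur were found in 13 cells against 4.25 (3.06, 1.63 to 5.23). Lilrb4a and Lilr4b were found in 5 cells against 0.484. How reads that fit both genes were counted is not given in the sources used here, so this number is uncertain. Of the 14 cells with Mmp12, 8 had Lpl and 5 had Lgals3.

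These ratios leaned on the cells with most UMIs. Without the 20 cells, 20 of the 36 pairs were above and 16 below expectation, and 4 pairs had an interval above 1. Leaving cells out by their summed UMIs also takes out cells with several genes by construction. Lgals3 with Lilrb4a was then at 2.97 (1.81 to 4.58), Lpl with Lilrb4a at 1.44 (1.05 to 1.93) and Lpl with Plaur at 1.24 (1.04 to 1.46). Lgals3 with Spp1 was at 1.36 (0.981 to 1.83) and Lgals3 with Lpl at 1.12 (0.902 to 1.39). With all cells thinned to 2000 UMIs, 17 pairs had an interval above 1. The intervals of Lgals3 with Spp1 (0.830 to 4.92) and Lpl with Plaur (0.826 to 2.27) then included 1. Those of Lgals3 with Lilrb4a (3.70 to 16.9) and Lpl with Lilrb4a (2.18 to 6.41) did not.

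**Figure D4:**
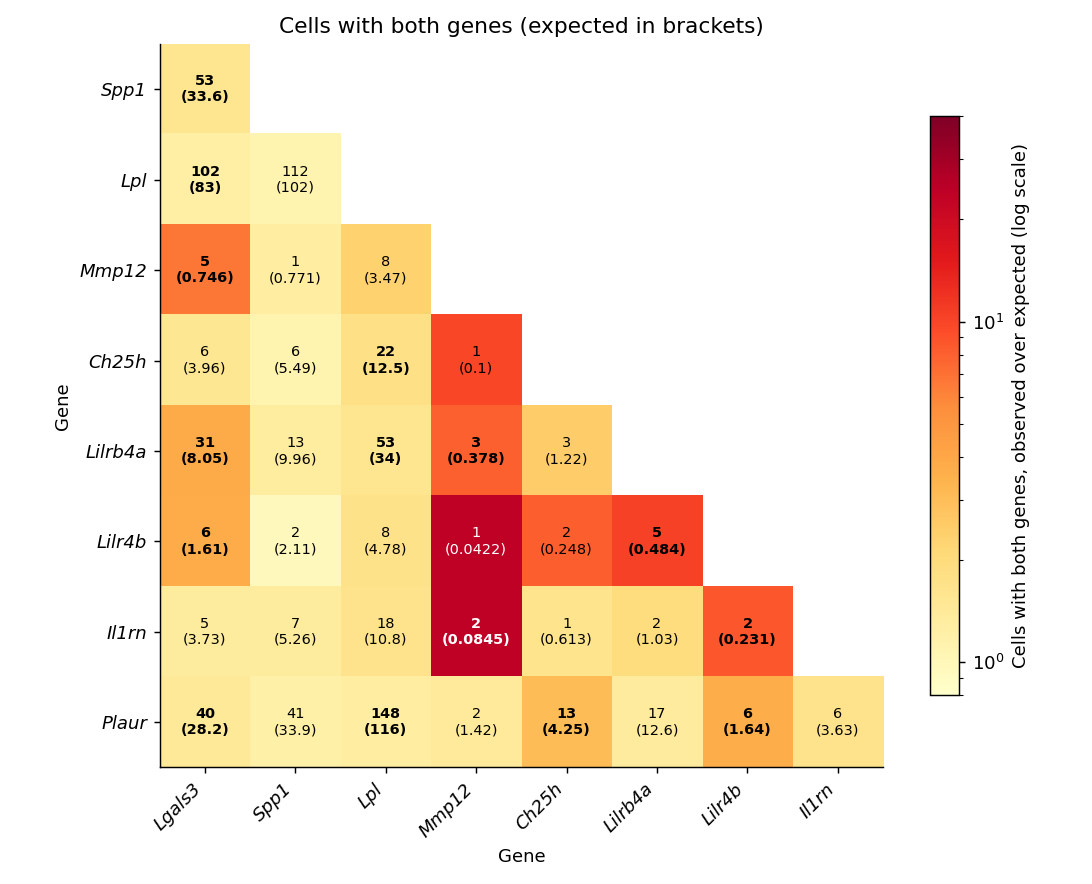
Number of cells with both genes of each pair and, in brackets, the number expected from the shares of the genes within each library and depth decile, with the ratio as colour on a log scale and bold type where its 95% Poisson interval lies above 1. Lgals3 with Lilrb4a (31 against 8.05) exceeded its expectation by more than Spp1 with Lpl (112 against 102), and the darkest squares rest on 1 or 2 cells.

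In 82 cells 3 or more of the genes were found, 1.09% of all cells (0.868 to 1.35), of which 55 had exactly 3. A further 370 cells had exactly 2. By library they were 7 cells of library 1 (1.15%, 0.463 to 2.35), 57 of library 2 (1.59%, 1.204 to 2.05) and 18 of library 3 (0.542%, 0.321 to 0.855). The single-gene shares by library and depth decile gave 46.6 cells, and 0.351, 39.8 and 6.51 by library. At least 4 genes were found in 27 cells against 3.44 expected, and 5 or more in 7 against 0.160. With cells thinned to 2000 UMIs, 19 of 7261 cells had 3 or more genes, 6, 9 and 4 by library, against 1.19 expected. The gap to the expected number was thus relatively wider for 4 or 5 genes than for 3. The thinned number was not counted without the 20 cells with 10 or more summed UMIs, so how far it rests on them is unknown. In the thinned share library 1 (1.47%, 0.542 to 3.17) lay above library 2 (0.252%, 0.115 to 0.478) and library 3 (0.122%, 0.0332 to 0.312), on 6 cells, and libraries 2 and 3 overlapped.

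Many of the 82 cells carried little of each gene. In 34 of them no gene passed 1 UMI, and in 20 at least 1 gene reached 5 UMIs. They were also deep, with a median of 8264 UMIs against 5668 over all cells, and 9008 against 5952 in library 2. Lpl was found in 73 of the 82, Lgals3 in 55, Plaur in 51, Spp1 in 47, Lilrb4a in 30, Ch25h and Il1rn in 9 each, Lilr4b in 6 and Mmp12 in 5. The most frequent sets of 3 were Spp1 with Lpl and Plaur in 25 cells, Lgals3 with Spp1 and Lpl in 23, Lgals3 with Lpl and Plaur in 21 and Lgals3 with Lpl and Lilrb4a in 16. Of the 20 cells with 10 or more summed UMIs, 18 were among the 82. Without those 20 cells, 64 cells had 3 or more genes against 41.8 expected. Counting Lilrb4a and Lilr4b as 1 gene left 81.

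**Figure D5:**
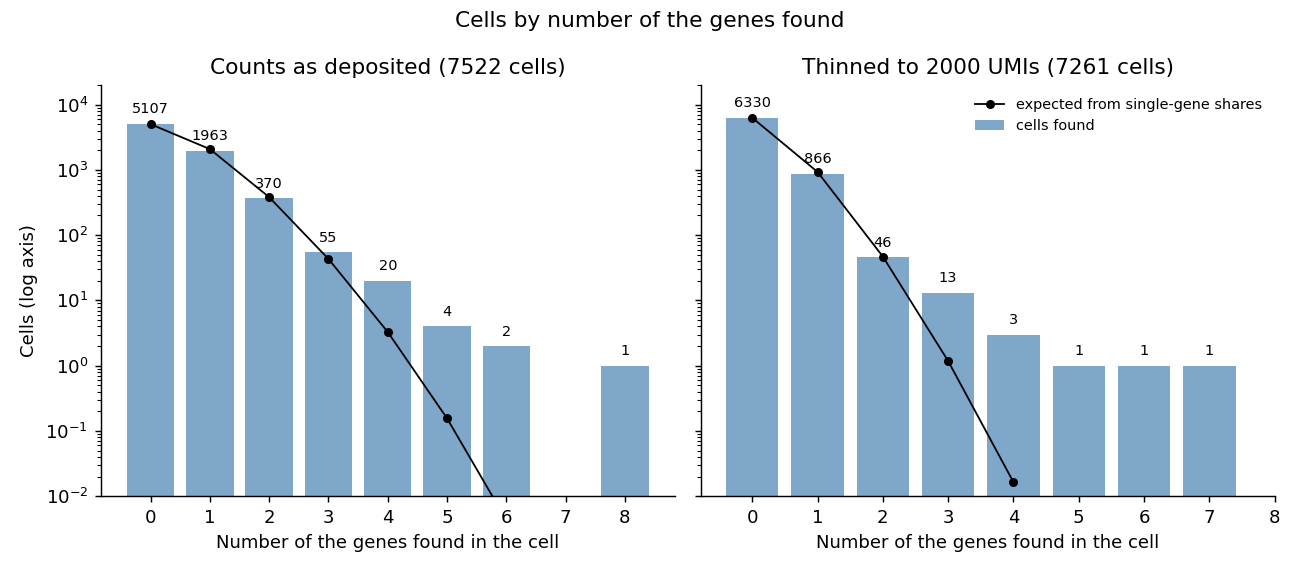
Cells (log axis) by the number of the 10 genes found in them, as bars with the number written above, and the number expected from single-gene shares as points, for the counts as deposited (left) and thinned to 2000 UMIs (right). Observed and expected numbers lay close up to 2 genes, and from 4 genes on the cells found (27 with 4 or more, as deposited) were above the expected 3.44.

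Markers of other cell types were counted in the same cells. Of the 82 cells, 1 had a UMI of a monocyte marker among 7 genes that include Ccr2 and Ly6c2 (2.06% of the cells with none of the genes had one), 2 had a neutrophil marker (1.76%) and 2 a marker of perivascular macrophages such as Mrc1 and Cd163 (0.940%). A marker of T or NK cells and one of dendritic cells were found in 4.88% of the 82 cells each, against 2.43% and 1.997% of the cells with none. Oligodendrocyte markers, such as Mbp and Mag, were found in 41.5% of the 82 cells and 31.5% of the cells with none, while their summed level was lower in the 82 cells, which were deeper, at 53.4 against 70.7 CPM. In the 20 cells with most UMIs all markers of monocytes, neutrophils, astrocytes and red blood cells were at 0, and a marker of perivascular macrophages was found in 1 cell. T or NK cell markers were found in 2 of the 20 cells, and those of dendritic cells, neurons and endothelial cells in 1 each, at 1 UMI. Oligodendrocyte markers were found in 10 of the 20 cells at 1 or 2 UMIs, and the part of these markers in the values was not tested. Microglia genes were found in all of them, at a summed 21959.7 CPM against 28166 CPM in cells with none of the genes, and at 24246 CPM in the 82 cells.

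The other genes in the 82 cells were compared with those in the 5107 cells that held none of the 10 genes, weighted to the same libraries. Of 3417 genes of at least 50 CPM, 14 (0.410%) were past 2-fold, 12 higher and 2 lower. The chemokines Ccl4 and Ccl3, which attract leukocytes, led the list with log2 ratios of 2.80 and 2.15. Ccl4 was at 4362 CPM against 34.1 in library 1, 977 against 64.6 in library 2 and 2479.7 against 738 in library 3. Next came Csf1, a growth factor of microglia and macrophages (2.14), the myosin Myo1e (1.501), Apoe (1.49), the transcriptional regulator Id2 (1.40) and Mfsd12 (1.29). The histone transcript Hist1h2ap (1.14), the receptor Cd72 (1.14) and the niacin receptor gene Hcar2 (1.13) closed the 10 highest. Ube3a, a ubiquitin ligase (-1.23), and Rtn4rl1 (-1.11) were past 2-fold lower, followed by Rapgef5 (-0.93), Adap2os (-0.90) and Adrb1 (-0.88). Csf1, Myo1e and Mfsd12 reached 50 CPM only in the 82 cells, so their ratios could only be above 1. Ube3a, Rtn4rl1, Rapgef5 and Adrb1 reached it only in the cells with none of the 10 genes, so theirs could only be below 1. A single cell of library 1 held 31.4% of the Apoe UMIs, and without it the log2 ratio of Apoe was 0.96. In the 64 of the 82 cells with under 10 summed UMIs it was 0.50. Without the single cell with most of their UMIs, Hist1h2ap (0.82) and Cd72 (0.998) were also below 2-fold. Cd72 (0.93) and Mfsd12 (0.94) were below it in the 64 cells, and Cd72 (0.85) without library 3. Leaving out library 2, which held 57 of the 82 cells, gave 205 genes past 2-fold, 107 higher and 98 lower, and a minimum of 10 CPM gave 249, 118 higher and 131 lower. Hist1h2ap stood at 452 against 195 CPM in library 2 and at 34.2 against 48.7 CPM in library 3.

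In the 20 cells with most UMIs, 343 of 3644 genes (9.41%) were past 2-fold, 177 higher and 166 lower. Without library 2 the number was 746 and without library 3 it was 596. With so few cells, 10 UMIs of a gene such as Plau stood for 67.4 CPM, so counts are given where they are low, and the genes named for these 20 cells were chosen after their values were seen. Ccl4 was higher with a log2 ratio of 3.39 (452 UMIs in 13 of the 20 cells), Apoe with 3.12 (652 UMIs in all 20), Csf1 with 2.94 (14 UMIs in 6) and Ccl3 with 2.75 (304 UMIs in 15). A single cell held 51.8% of these Apoe UMIs, and without it the log2 ratio was 2.12. By library, Apoe stood at 26239 against 653 CPM in library 1, 3216 against 499 in library 2 and 417 against 479 in library 3, so that the direction in library 3 was the opposite one. Csf1 had no UMI in the 6 cells of library 3. Ccl4 was higher in each library, with 4883 against 34.1, 2421 against 64.6 and 3596 against 738 CPM. Of the other 2 chemokine genes tested, Ccl2 and Ccl12, neither was past 2-fold, with log2 ratios of 0.78 and 0.47 in the 82 cells and -0.20 and -0.33 in the 20 cells.

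Genes of the disease-associated program, a set of microglial genes first described around amyloid plaques, were counted with the 10 genes left out. Of 26 such genes 25 were in the matrix and the other was not analysed here. Of 18 tested in the 82 cells, 2 were past 2-fold higher (Csf1, and Apoe, which was not past it without library 1 or in the 64 cells with under 10 summed UMIs) and none lower, followed by Cd63 (0.76) and the chemokine Ccl6 (0.56), with a median log2 ratio of 0.27 against 0.02 over all genes tested. In the 20 cells with most UMIs, 12 of 22 were past 2-fold higher and none lower, with a median of 1.25 against 0.04. The largest were the intermediate filament gene Vim (3.84, 11 UMIs in 5 cells), Apoe, the pyrophosphate transporter gene Ank (2.96, 11 UMIs in 6 cells) and Csf1. Vim, Ank, Csf1, Axl and Cst7 reached 50 CPM only in the 20 cells, so their ratios could only be above 1. The same held for Csf1 in the 82 cells (52.1 against 11.0 CPM). Vim, Ank, Csf1, Axl and Cst7 are all among the 12 genes past 2-fold in the 20 cells. The median of 1.25 includes them too, so that count and that median lean on the way genes entered the comparison. Cd9, a tetraspanin (1.30), Cd63, a lysosomal tetraspanin (1.47), Ctsb, a lysosomal protease (1.21) and Lyz2, lysozyme (1.66), were each found in at least 19 of the 20 cells. In that order they were also found in 98.0%, 87.5%, 99.2% and 74.7% of the cells with none of the 10 genes. A single cell held 29.2% of the Lyz2 UMIs. Lyz2 stood at 4227 against 315 CPM in library 1, 949 against 396 in library 2 and 457 against 264 in library 3. Trem2 (0.01), Tyrobp (0.19) and Ctsd (0.37) were found in all 20 cells and were not past 2-fold.

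Homeostatic microglia genes, which include P2ry12 and Tmem119, had ratios mostly below 1. In the 82 cells 11 of 12 had a ratio below 1 with a median log2 ratio of -0.18, none past 2-fold, and in the 20 cells 11 of 12 with a median of -0.46, of which the transcription factor gene Sall1 (-1.58, 5 UMIs in 5 cells) was past 2-fold. In that comparison Sall1 reached 50 CPM only in the cells with none of the genes, so its ratio could only be below 1. P2ry12, a purinergic receptor, was at -0.67 in the 82 cells and -0.96 in the 20 cells. Gpr34 was at -0.45 and -0.53, P2ry13 at -0.28 and -0.64, and Tmem119 at -0.26 and -0.52.

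Of lipid-handling genes, none of 4 tested was past 2-fold in the 82 cells (median 0.15), and 3 of 6 were past 2-fold higher in the 20 cells (median 0.92). These were the cholesteryl ester hydrolase gene Nceh1 (2.02), the cholesterol acyltransferase gene Soat1 (1.33) and the lipid droplet gene Plin2 (1.16), on 9 to 17 UMIs each. All of them reached 50 CPM only in the 20 cells, so their ratios could only be above 1. Of matrix and adhesion genes, none of 3 was past 2-fold in the 82 cells. In the 20 cells Plau, which encodes the urokinase that the product of Plaur binds, was past 2-fold higher (3.13, 10 UMIs in 6 cells). Plau also reached 50 CPM only in these cells. None of 2 interleukin 1 pathway genes tested in the 82 cells and of 3 in the 20 cells was past 2-fold, with Il1a at 0.19 and 0.00. The same was true of interferon-stimulated genes, with 2 and 4 tested.

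Proliferation genes, such as Top2a and Mki67, had ratios above 1 for all 11 tested in the 82 cells, with a median of 0.68, and 1 of them, the cyclin gene Ccnb2 (1.05), was past 2-fold. Cenpf, Ube2c, Cdk1, Ccnb2 and Rrm2 reached 50 CPM only in the 82 cells, so their ratios could only be above 1. The genes of this list below the minimum were Mcm5 (-0.15), Mcm6 (0.21) and Ccnb1 (0.12). Cenpf, Ube2c, Mki67, Cdk1, Ccnb2, Top2a, Birc5 and Rrm2 had UMIs only in those of the 82 cells that belonged to library 2, and Stmn1 was at 54.6 against 70.1 CPM in library 3. In the 20 cells the 5 tested had a median of -0.04 and none was past 2-fold. Depth moved with the values in the 82 cells, since these cells were deeper than the rest, and its part was not tested. Of 14 immediate early genes, 7 had a ratio above 1 and 7 below it in the 82 cells, and in the 20 cells the median was 0.19. Atf3, a stress-induced transcription factor gene, was at 0.88 in the 82 cells and past 2-fold at 1.097 in the 20 cells (46 UMIs in 11 cells).

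Cells of library 2 and 3 were also grouped by the other genes, after thinning to 2000 UMIs. In library 2, Lgals3 was found in 2.57% of 1169 cells with at least 3 proliferation genes (1.74 to 3.64) and in 2.82% of 319 cells with none (1.30 to 5.29). Spp1 was found in 2.91% (2.02 to 4.04) and 2.51% (1.09 to 4.88), and Lpl in 7.44% (6.00 to 9.10) and 7.84% (5.14 to 11.4), so that no difference was detectable at this depth. Spp1 in library 2 was found in 3.62% of the 1189 cells ranked highest by early-gene UMIs (2.63 to 4.84), against 2.103% of the 1189 ranked lowest (1.37 to 3.09), with overlap of the intervals. In library 3, Lgals3 was found in 1.097% (0.568 to 1.91) and 0.640% (0.258 to 1.31) of 1094 cells each, again with overlap.

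Correlations were taken over the 6913 cells of libraries 2 and 3, among 10864 genes found in at least 1% of all cells. Ch25h, Il1rn, Lilr4b, Mmp12 and Gpnmb were below that share and could not enter. The gene most like Lgals3 was Lilrb4a, with a mean within-library Pearson r of 0.187 (0.197 in library 2 and 0.177 in library 3). It was followed by Spp1 (0.115), Lpl (0.095), Gas2l3 (0.083) and Ccl3 (0.082). Lilrb4a also came first for Spp1 (0.121), followed by Lgals3, Rab7b, Gas2l3 and Plau, although r of Spp1 with Gas2l3 was -0.006 in library 2 and 0.194 in library 3, and first for Lpl (0.111), followed by Lgals3, Axl, Apoe and Cd63. These correlations are weak, the cells of a library share their preparation, and sparse counts leave most cells at 0 for each gene, so the order is a description only. The correlations were not repeated without the 20 cells with 10 or more summed UMIs.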

How the data were processed

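YFP (+) cells of 3 pooled animals per group gave 1 droplet library each for naive, 24 h and 48 h. The authors deposited 1 matrix of raw UMI counts per gene and cell, without normalization. The submitters' processing notes name Cell Ranger 2.1.1 and mm10 with no role, while the sources used here do not give how cells were called or whether reads were down-sampled. No per-sample column was left out. The 10 genes and all lists were chosen with earlier results of these data known.

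All deposited cells were kept, with no doublet caller. Shares have exact (Clopper-Pearson) 95% intervals, sums exact Poisson intervals, and a count of 0 allows 3 counts. Intervals cover counting error only. Thinning drew 2000 UMIs per cell without replacement (seed 1). CPM ratios used a pseudocount of 1 and 50 CPM in either set of cells. A gene that reached this minimum in 1 set only could only come out higher in that set. The steps were tested on simulated counts. Results that need some of the listed genes are not reported here. Genes named beside the 10 were the 10 highest and 5 lowest ratios (for the highest, with UMIs in at least 5 of the 82 cells), up to 4 per list with the largest change, and the 5 most correlated with Lgals3, Spp1 and Lpl. The cells with 10 or more summed UMIs, and genes named for them, were added after seeing the data. Alternatives were a cell filter, a minimum of 2 UMIs, thinning, other expectations, pseudocounts and CPM minima, and leaving out libraries or cells. Tools were Python 3.11.15, numpy 2.4.6 and scipy 1.17.1.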

Additional observations from a re-analysis of the deposited data

How the results depend on the processing

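No paired analysis was possible because each group is 1 library and the libraries carry no replicate numbers. Shares that stood apart were not counted over all genes, so the numbers that follow are not read as particular to the 10 genes. The number of genes whose shares stood apart between libraries 2 and 3 was 5. It was 2 after thinning to 2000 UMIs and 1 with at least 2 UMIs per cell, and stayed 5 under the cell filter of at least 200 genes, 500 UMIs and at most 10% mitochondrial UMIs and without the 20 cells with 10 or more summed UMIs. The 82 cells with 3 or more genes became 19 after thinning (1.19 expected), 9 with at least 2 UMIs per gene (0.230 expected) and 37 among the 3984 cells without a marker of another cell type (18.4 expected). The filter left 82. The count of pairs with an interval above 1, which was 15, was 4 without the 20 cells and 11 to 20 under the other alternatives. The 14 genes past 2-fold in the 82 cells became 249 at a minimum of 10 CPM, 205 without library 2 (25 cells remain, 11 of the 14 genes shared) and 343 in the 20 cells, and 11 to 16 otherwise. A similar count did not mean the same genes. In the 64 cells with under 10 summed UMIs, 16 genes were past 2-fold and 8 of them were among the 14. The 343 genes of the 20 cells became 1853 at 10 CPM, 746 without library 2 and 596 without library 3. Between libraries, the counts past 2-fold were 892 for 2 against 1, 856 for 3 against 1 and 368 for 3 against 2 at 10 CPM, where 298, 310 and 126 were found at 50 CPM. Hist1h2ap changed direction, to a log2 ratio of -0.62 without library 2 and -4.08 in the 20 cells, where it had 1 UMI. Fewer cells or lower minima rest on fewer UMIs per gene, and otherwise the cause of these changes was not tested. Of the log2 ratios of single named genes, 134 of 155 alternative values kept their direction and side of 2-fold, the CPM minimum left out because it cannot move a ratio. These genes were named for their extreme ratios and the alternatives reuse the same cells, so this share does not measure stability. With 609 cells, library 1 limits every comparison that includes it.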
